A study of Mus musculus with 5 samples.

Results

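The genes described here encode integrins, the transmembrane receptors through which fibroblasts hold on to the extracellular matrix, and the proteins of focal adhesions that gather on the inner side of those receptors. They were taken by gene symbol from a list of 32 names, 16 integrin subunits and 16 cytoplasmic proteins, and 31 of them had values among the 14454 genes listed; Itga4 was not analysed here. RNA was sequenced in 5 lines of NIH/3T3, an immortalised line of mouse embryonic fibroblasts. All 5 lines expressed, from an integrated construct, human histone H2A joined to the green fluorescent protein EGFP. In 4 lines, numbered 3, 6, 15 and 18, the histone carried the T120D substitution, an aspartate in the place of a threonine, and in 1 line it was wild type (wt). All lines were cultured with 10% fetal calf serum and 10 µg/ml gentamicin. The promoter of the transgene and whether a line was 1 clone are not stated in the labels, and p-values therefore measure only the spread between these T120D samples, which may be technical.

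An integrin is a heterodimer of an alpha and a beta subunit, and the alpha subunit largely decides which matrix protein is bound. Talin and kindlin bind the cytoplasmic tail of the beta subunit and switch the receptor on. Adaptors and kinases such as paxillin, the Cas proteins, FAK and Src then assemble there, and vinculin, zyxin and the tensins tie the complex to actin filaments. Focal adhesions are prominent in cultured fibroblasts and are known to change when such cells are transformed.

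RPKM, the unit deposited by the authors, is reads scaled to transcript length and library size. Steps between low values put the depth at 2525000 to 2720000 reads in a line, so 1 RPKM of a 2000-base transcript stood for 5.05 to 5.44 reads. Fibroblast markers summed to 1626 to 1775 RPKM in T120D lines and 1934 RPKM in wt. The most abundant, Vim, was at 827 ± 22.3 RPKM (SD, n = 4) in T120D lines and 701 RPKM in wt. Lum was at 0 to 0.362 RPKM in T120D lines and 3.89 RPKM in wt. Over the 11 markers with values the median log2 difference was -1.12. Of the 10 tested markers, 1 was called higher (Thy1, at 55.0 ± 7.26 RPKM in T120D lines against 20.3 RPKM in wt) and 6 lower, among them Pdgfra at 12.7 ± 1.72 RPKM (SD, n = 4) in T120D lines against 43.5 RPKM in wt (limma log2 difference -1.71, adjusted p = 0.000444). Over all tested genes 7.65% were called higher and 5.45% lower. Markers of blood cells summed to 0.747 to 2.18 RPKM in T120D lines and 3.04 RPKM in wt. Endothelial markers summed to 0.0926 to 0.471 RPKM in T120D lines and 0 in wt, with Pecam1 and Tek at 0 throughout. Epithelial markers summed to 0.226 to 0.657 RPKM in T120D lines and 0.470 in wt, and skeletal muscle markers to 0.172 to 1.23 RPKM in T120D lines and 0.683 in wt. The part of the shift in fibroblast markers in the results below was not tested. In bulk RNA, fewer expressing cells and less RNA per cell cannot be told apart.

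Of the 31 members with values, 22 averaged 1 RPKM or more over the lines and were tested for the mean of the T120D lines minus wt on the log2(RPKM + 1) scale, with limma and Benjamini-Hochberg adjustment over all 10052 tested genes. Of these 22, 6 were called at an adjusted p under 0.05, all of them higher in T120D: the integrin subunit gene Itgb1 and the cytoplasmic genes Zyx, Src, Vcl, Bcar1 and Tns3. The 6 made up 27.3% of the tested members, and over all tested genes 13.1% were called, 7.65% as higher and 5.45% as lower. No member was called lower by limma, and none had a negative difference at an unadjusted p under 0.05 (0 genes), whereas 12 had a positive one. Over all tested genes 13.4% had a negative and 15.2% a positive difference at that unadjusted p. The share of tested members with all 4 T120D lines above wt was 63.6%, against 31.1% of all tested genes, and the share with all 4 below was 9.09%, against 32.3%. Itga3, which averaged 1 RPKM or more only through the T120D lines, is among the 12 and among the members above wt in all 4. The single wt line enters every one of these counts, so the genes do not count as separate observations. The members were chosen with earlier results of these data known, so these shares are not read as support.

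**Figure D1:**
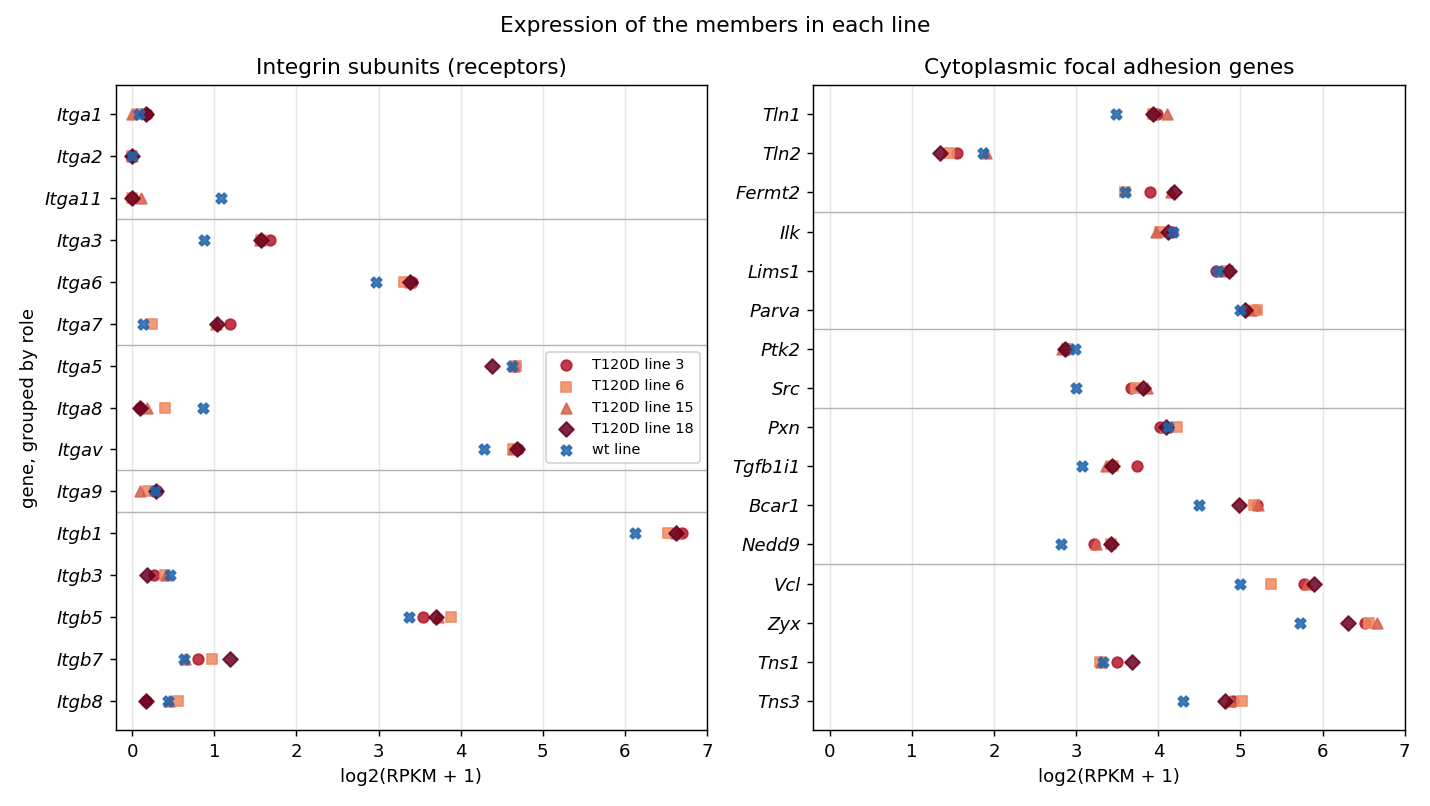
Level of each of the 31 members with values, as log2(RPKM + 1) on the horizontal axis, in the 4 T120D lines (red shades) and the wt line (blue crosses), with integrin subunits on the left and cytoplasmic genes on the right. Grey lines separate the roles; Itgb1 and Zyx lie highest, and 9 integrin subunits stay below 1.5 RPKM in every line.

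The receptor side was dominated by few genes. Itgb1, which encodes the beta subunit shared by most integrins of fibroblasts, was the most abundant member by the T120D mean and in wt. Itgb1 stood at 103, 91.2, 97.7 and 97.7 RPKM in T120D lines 3, 6, 15 and 18, against 68.8 RPKM in wt. In T120D lines 6 and 15 Zyx was higher than Itgb1, at 93.3 and 101 RPKM. For Itgb1 all 4 T120D lines lay above wt, and their mean of 97.4 ± 4.85 RPKM (SD, n = 4) was 1.42 times the wt value (limma log2 difference 0.49, SE 0.10, 95% confidence interval 0.27 to 0.72, adjusted p = 0.0140). Itgb1 kept its call in 9 of 10 alternatives and lost it by limma without a trend (adjusted p = 0.0891).

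Itgb5, the beta subunit that pairs with Itgav to bind vitronectin, was at 10.6, 13.7, 12.3 and 12.0 RPKM in T120D lines 3, 6, 15 and 18, against 9.39 RPKM in wt. All T120D lines lay above wt here too, but by less relative to their spread, and the gene was not called (log2 difference 0.34, 95% confidence interval -0.04 to 0.71, limma adjusted p = 0.220). The remaining beta subunits, Itgb3, Itgb7 and Itgb8, stayed under 1.5 RPKM in every line. Summed over the 5 beta subunits, the level was 115, 107, 111 and 111 RPKM in T120D lines 3, 6, 15 and 18, against 79.5 RPKM in wt, a ratio of 1.40. Itgb1 supplied 85.5% to 89.8% of this sum in T120D lines and 86.6% in wt, so its share of the beta pool overlapped between the groups.

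The RGD-binding alpha subunits, which recognise the Arg-Gly-Asp sequence of fibronectin and vitronectin, held most of the alpha pool. Itgav was at 25.0, 23.9, 23.9 and 24.8 RPKM in T120D lines 3, 6, 15 and 18, against 18.5 RPKM in wt. These 4 values lay close together and all above wt, with a ratio of 1.32, but the gene missed the threshold (log2 difference 0.38, 95% confidence interval 0.12 to 0.65, limma adjusted p = 0.0667); with no filter on low values it was called (0.0379). Itga5, whose product forms the classical fibronectin receptor with that of Itgb1, was at 24.3, 24.4, 24.1 and 19.8 RPKM in T120D lines 3, 6, 15 and 18, against 23.6 RPKM in wt. Here 3 T120D lines lay just above wt and line 18 below it (log2 difference -0.03, 95% confidence interval -0.37 to 0.30, limma adjusted p = 0.915).

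The ratio of these abundant alpha subunits did not overlap between the groups. The level of Itga5 was 0.971, 1.02, 1.01 and 0.799 times that of Itgav in T120D lines 3, 6, 15 and 18, and 1.28 times in wt. As shares of the alpha pool, Itga5 made up 34.5% to 40.7% in T120D lines and 45.4% in wt, while Itgav made up 39.4% to 43.2% in T120D lines and 35.5% in wt. Neither share overlapped between the groups. Such separation from 1 wt line was common: 31.1% of all tested genes had all 4 T120D lines above wt and 32.3% all 4 below. The ratio and the shares rest largely on the same genes and are not separate observations. With 1 wt line the smallest one-sided p of an exact permutation is 0.2, so these ratios and shares were not tested. The 10 alpha subunits summed to 62.8, 60.0, 60.7 and 57.5 RPKM in T120D lines 3, 6, 15 and 18, against 52.0 RPKM in wt, a ratio of 1.16. The beta sum was 1.83, 1.78, 1.83 and 1.94 times the alpha sum in these T120D lines and 1.53 times in wt.

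**Figure D2:**
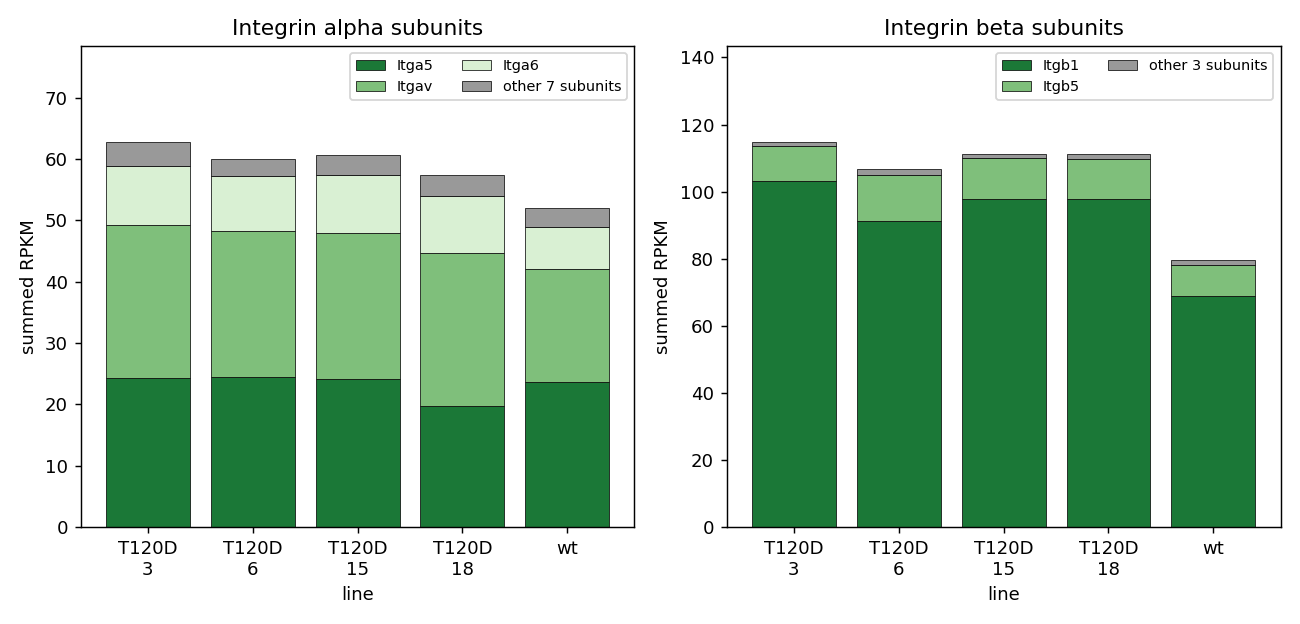
Summed RPKM of the alpha subunits (left) and beta subunits (right) in each line, stacked by gene, with the 4 T120D lines left of the wt line and both axes starting at 0. The beta sums of the T120D lines, 107 to 115 RPKM, all exceed the 79.5 RPKM of wt, and Itga5 is the largest alpha segment in wt at 45.4% of the sum.

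Laminin-binding alpha subunits, at lower levels, lay above wt in every T120D line, as did 31.1% of all tested genes. Itga7, described below, did not reach the filter on low values, and in line 6 it was within 1 read of wt. Of the 4 tested alpha subunits of any class limma called 0, and 3, Itga3 among them, had an unadjusted p under 0.05. At that unadjusted p, 15.2% of all tested genes had a positive and 13.4% a negative difference. Itga6 was at 9.58, 8.95, 9.42 and 9.42 RPKM in T120D lines 3, 6, 15 and 18, against 6.84 RPKM in wt (log2 difference 0.40, limma adjusted p = 0.120). Itga3 was at 2.20, 1.98, 1.94 and 1.96 RPKM in T120D lines 3, 6, 15 and 18, against 0.831 RPKM in wt. The T120D mean of Itga3 was 2.43 times the wt value, the largest such ratio among the 22 tested members, yet on the log2(RPKM + 1) scale the difference of 0.72 was not called (limma adjusted p = 0.0821). By limma without a trend Itga3 was called (0.0333). It passed the filter on low values only through the T120D lines, so its difference is not read as support.

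The other 9 receptors with values did not reach the filter on low values. Itga2, a collagen receptor subunit, was listed at 0 in all 5 lines. For the remaining 8, the values of the 5 lines fell on multiples of a common step, within 0.021 reads of whole numbers, so that reads per line could be estimated; for 5 of these genes the transcript length implied by the step was within 2% of the longest annotated GRCm38 transcript. Itga11, the alpha subunit of a receptor for fibrillar collagen found on fibroblasts, had 0, 0, 1 and 0 reads in T120D lines 3, 6, 15 and 18, against 15 reads in wt. The gene was thus detected in wt and almost not in T120D lines, with a depth-corrected ratio of 0.0172 (95% interval 0.00041 to 0.112). Without the filter on low values limma called it lower (log2 difference -1.05, adjusted p = 0.00854). In that fit 6.86% of 13826 genes were called, 3.72% as lower and 3.14% as higher. The T120D lines, at 0 or 1 read, gave little spread to measure for Itga11, and wt was given the same spread. This adjusted p therefore takes no account of counting error in the 15 wt reads.

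Itga8, an RGD-binding subunit, had 1, 5, 2 and 1 reads in T120D lines 3, 6, 15 and 18, against 13 reads in wt. All T120D lines lay below wt, with a ratio of 0.179 (95% interval 0.0676 to 0.453), and the gene was not called without the filter (limma adjusted p = 0.0723). Itga7, a laminin receptor subunit best known from muscle, split the T120D lines. It had 13, 2, 11 and 11 reads in T120D lines 3, 6, 15 and 18, against 1 read in wt. Lines 3, 15 and 18 were alike, while line 6 was within 1 read of wt; over all 4 T120D lines the ratio was 9.57 (95% interval 1.61 to 388), without a call (limma adjusted p = 0.352 without the filter). The intervals are exact (Clopper-Pearson on the estimated reads, with those of the 4 T120D lines pooled) and cover counting error only, not the spread between lines.

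The 5 other low receptors gave between 0 and 9 reads per line and their intervals included a ratio of 1. Itgb3, the partner of Itgav in a vitronectin receptor, had 15 reads over the T120D lines and 6 in wt. Itgb7 had 25 reads over the T120D lines and 4 in wt, Itga1 5 and 1, Itga9 9 and 3, and Itgb8 9 and 3. Differences of these 5 genes between the groups were not detectable at this depth. For Itga1, Itga9 and Itgb8 the implied lengths were 5992, 5156 and 3102 bases. Their longest annotated transcripts have 10967, 7020 and 8403 bases, so the read numbers of these genes are less certain. The 10 integrin subunits outside the list were of the same low order or not analysed here: 6 had values, summing to 1.10 to 1.56 RPKM in T120D lines and 1.80 RPKM in wt, and 0 of them were tested.

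**Figure D3:**
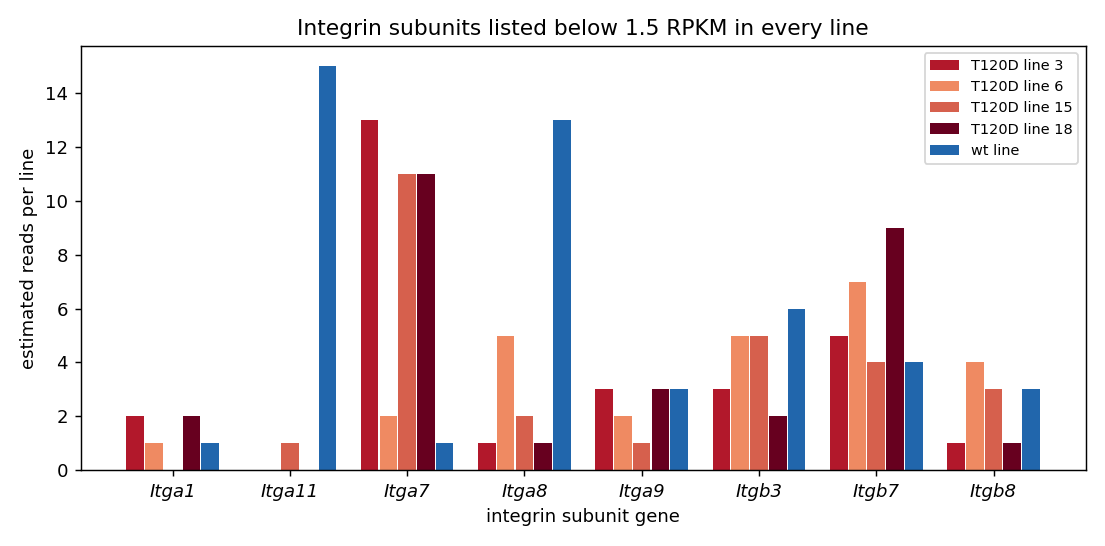
Estimated reads per line (vertical axis, from 0) for the 8 integrin subunit genes below 1.5 RPKM in every line, with the 4 T120D lines in red shades left of the wt line in blue. Itga11 has 15 reads in wt and 0 or 1 in T120D lines, Itga8 has 13 in wt and at most 5 in T120D lines, and Itga7 has 11 to 13 in T120D lines 3, 15 and 18.

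On the cytoplasmic side all 16 genes were tested, and 5 were called higher (31.2%) and 0 lower. Over all tested genes 7.65% were called higher and 5.45% lower. Of the 4 genes whose proteins tie adhesions to actin filaments, 3 were called. Zyx encodes zyxin, a LIM protein that accumulates on adhesions under tension. It was at 90.5, 93.3, 101 and 78.6 RPKM in T120D lines 3, 6, 15 and 18, against 51.9 RPKM in wt. Every T120D line lay well above wt, and the mean was 1.75 times the wt value (limma log2 difference 0.79, SE 0.13, adjusted p = 0.00611). With no filter on low values Zyx was not called (limma adjusted p = 0.0555).

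Vcl, the gene of vinculin, which links talin to actin, was at 53.5, 40.5, 55.1 and 58.4 RPKM in T120D lines 3, 6, 15 and 18, against 30.9 RPKM in wt. Line 6 lay between wt and the other T120D lines. The mean was 1.68 times the wt value (limma log2 difference 0.72, SE 0.18, adjusted p = 0.0307). This call ended when line 3, 15 or 18 was left out (adjusted p = 0.0664, 0.0548 and 0.0581), and also with no filter on low values (0.142) and by limma without a trend (0.0931); without line 6 it was 0.00237.

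Of the tensin genes, Tns3 was called and Tns1 was not. Tns3, a tensin that binds beta integrin tails, was at 29.1, 31.5, 28.2 and 27.1 RPKM in T120D lines 3, 6, 15 and 18, against 18.7 RPKM in wt, a ratio of 1.55 (limma log2 difference 0.61, SE 0.13, adjusted p = 0.0159; 0.0589 without a trend). Tns1, its paralog, was at 10.3, 8.74, 8.82 and 11.8 RPKM in T120D lines 3, 6, 15 and 18, against 9.02 RPKM in wt. The groups overlapped for Tns1 (log2 difference 0.11, 95% confidence interval -0.31 to 0.54, limma adjusted p = 0.735). Whether the 2 tensins differed in their response was not tested.

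Of the 2 tyrosine kinases, Src was called and Ptk2 was not. Src, a kinase that acts together with FAK in adhesions, was at 11.7, 12.2, 13.6 and 13.0 RPKM in T120D lines 3, 6, 15 and 18, against 6.9997 RPKM in wt. Its T120D values lay in a narrow band above wt, 1.80 times higher on average (limma log2 difference 0.77, SE 0.15, adjusted p = 0.0124), and the call held in 10 of 10 alternatives. Ptk2, the gene of the focal adhesion kinase FAK, was at 6.49, 6.39, 6.08 and 6.28 RPKM in T120D lines 3, 6, 15 and 18, against 6.91 RPKM in wt. All T120D lines lay slightly below wt (log2 difference -0.11, 95% confidence interval -0.49 to 0.26, limma adjusted p = 0.698). Src stood at 1.81, 1.91, 2.23 and 2.07 times the level of Ptk2 in T120D lines 3, 6, 15 and 18, and at 1.01 times in wt.

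Of the 4 scaffold genes, 1 was called and 3 lay above wt in all T120D lines. Shares over all tested genes were 7.65% for calls as higher and 31.1% for all 4 T120D lines above wt. Bcar1, which encodes p130Cas, a substrate of Src and FAK, was at 35.9, 34.9, 36.2 and 30.6 RPKM in T120D lines 3, 6, 15 and 18, against 21.5 RPKM in wt. The T120D mean was 1.60 times the wt value, with no overlap (limma log2 difference 0.65, SE 0.13, adjusted p = 0.0127; 0.0555 without a trend). Nedd9, a second Cas family gene, was at 8.29, 9.75, 8.47 and 9.77 RPKM in T120D lines 3, 6, 15 and 18, against 6.01 RPKM in wt. It also lay above wt in every line and missed the threshold (log2 difference 0.52, 95% confidence interval 0.14 to 0.90, limma adjusted p = 0.0779).

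Pxn, the gene of the scaffold paxillin, was at 15.3, 17.8, 15.98 and 16.005 RPKM in T120D lines 3, 6, 15 and 18, against 16.4 RPKM in wt. The T120D lines lay on both sides of wt (log2 difference -0.01, 95% confidence interval -0.33 to 0.30, limma adjusted p = 0.963). Its paralog Tgfb1i1, encoding Hic-5, was at 12.4, 9.88, 9.31 and 9.78 RPKM in T120D lines 3, 6, 15 and 18, against 7.39 RPKM in wt. All lines were above wt, without a call (log2 difference 0.43, limma adjusted p = 0.162). Zyx stood at 4.91 to 6.30 times the level of Pxn in T120D lines and at 3.17 times in wt.

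At an unadjusted p under 0.05, 15.2% of all tested genes had a positive and 13.4% a negative difference. Of the genes that activate integrins from inside, 0 of 3 were called by limma, with 1 at that unadjusted p. That gene was Tln1, the main talin of fibroblasts, at 14.8, 14.2, 16.2 and 14.2 RPKM in T120D lines 3, 6, 15 and 18, against 10.2 RPKM in wt. Its adjusted p of 0.0502 lay at the threshold (log2 difference 0.50, 95% confidence interval 0.18 to 0.83). Tln1 was called with median scaling (limma adjusted p = 0.0402) and among genes averaging 5 RPKM or more (0.0375). Fermt2, the gene of kindlin-2, was at 13.9, 11.04, 16.8 and 17.3 RPKM in T120D lines 3, 6, 15 and 18, against 11.1 RPKM in wt. Line 6 coincided with wt while the other lines were above it (log2 difference 0.36, 95% confidence interval -0.14 to 0.87, limma adjusted p = 0.326). Tln2, the less abundant talin, was at 1.92, 1.73, 2.72 and 1.53 RPKM in T120D lines 3, 6, 15 and 18, against 2.63 RPKM in wt, with overlapping groups (limma adjusted p = 0.513).

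The complex of ILK, PINCH-1 and alpha-parvin, which joins integrins to actin, had the summed level nearest to wt of the cytoplasmic roles, with a ratio of 1.04. By limma 0 of its 3 genes were called and 0 had an unadjusted p under 0.05. Ilk was at 15.8 ± 0.9997 RPKM (SD, n = 4) in T120D lines and 17.1 RPKM in wt. Lims1, the gene of PINCH-1, was at 26.7 ± 1.43 RPKM in T120D lines and 25.4 RPKM in wt, and Parva was at 34.1 ± 1.66 RPKM in T120D lines and 30.9 RPKM in wt. The 95% confidence intervals of the log2 differences ran from -0.42 to 0.21 for Ilk, from -0.21 to 0.35 for Lims1 and from -0.13 to 0.40 for Parva. Differences within these bounds are not excluded.

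**Figure D4:**
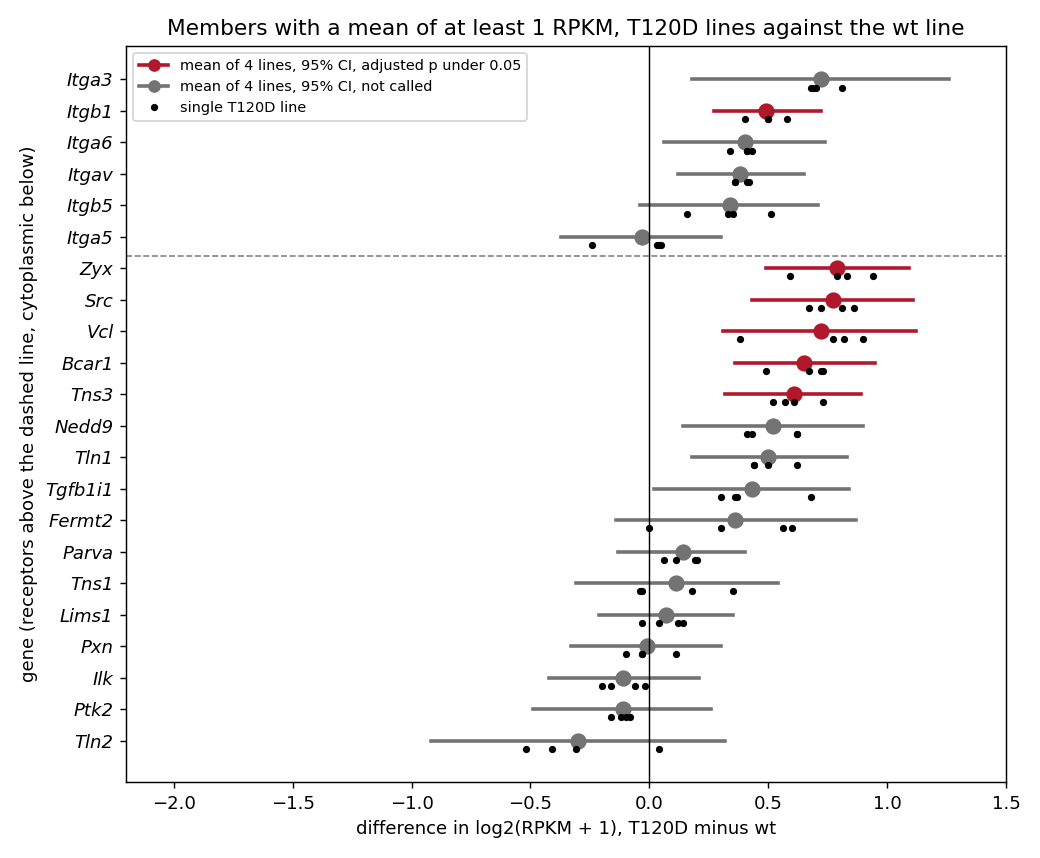
Difference in log2(RPKM + 1), T120D minus wt, for the 22 tested members: large points are means over the 4 T120D lines, bars are 95% confidence intervals, and small points are the single lines. Receptors stand above the dashed line and cytoplasmic genes below it; the 6 called genes (red) range from 0.49 for Itgb1 to 0.79 for Zyx.

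Set against each other, the receptors had 1 call among 6 tested genes and the cytoplasmic genes 5 among 16. Over all tested genes 13.1% were called. The difference between the receptor and cytoplasmic shares was not tested. Over the tested genes, the median log2 difference was 0.39 for the 6 receptors, Itga3 included, and 0.40 for the 16 cytoplasmic genes. For all tested genes it was -0.02. Over all genes with values, it was 0.02 for the 15 receptors and 0.40 for the 16 cytoplasmic genes, beside 0.0 for all listed genes. The 15 receptors include the 9 below the filter, whose differences went both ways, from -1.05 for Itga11 to 0.74 for Itga7. This scale compresses differences of such low genes, and with a pseudocount of 0.1 the receptor median was 0.08. The cause of the lower receptor median was not tested. By line, the cytoplasmic median was 0.36, 0.29, 0.36 and 0.40 in T120D lines 3, 6, 15 and 18. Summed levels were 171 ± 4.71 RPKM for receptors in T120D lines (SD, n = 4) and 131.5 RPKM in wt, a ratio of 1.30, and 379 ± 10.2 RPKM for cytoplasmic genes in T120D lines and 273 RPKM in wt, a ratio of 1.39. By role, the ratio of summed levels was 1.64 for actin-linking genes, 1.37 for paxillin and Cas scaffolds, 1.36 for the kinases, 1.32 for the activators and 1.04 for the complex of Ilk, Lims1 and Parva.

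The order of levels within the T120D lines was mostly gradual. Of 30 neighbouring pairs, ranked by T120D mean, 23 had ranges over the 4 lines that overlapped. Itgb1 and Zyx overlapped at the top, Vcl stood apart below them, and Bcar1 and Parva followed with overlapping ranges. In wt the order was Itgb1, Zyx, Parva and Vcl, with Bcar1 in position 7. Among the 22 tested members no line was an extreme throughout: line 3 was the highest T120D line for 7 genes, and lines 6, 15 and 18 for 5 genes each. Line 6 was nearer to wt than the other T120D lines for Vcl, Fermt2 and Itga7, which were singled out after their values were seen.

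Promoter sequences of the called genes are shown to see which letters lie before their starts. RefSeq promoters of build GRCm38.p6, a later build than the authors' mm9, matched 24 of the 32 members with 29 promoters, and the 250 bases before the start were searched on both strands. Of the motifs searched, those of AP-1 (TGACTCA), TEAD (GGAATG) and the CArG box of SRF are in capitals below for the 3 called genes whose promoter holds one of them; the promoters of Src, Bcar1 and Tns3 held none of these letters.
Vcl, chr14:20929148-20929397, plus strand: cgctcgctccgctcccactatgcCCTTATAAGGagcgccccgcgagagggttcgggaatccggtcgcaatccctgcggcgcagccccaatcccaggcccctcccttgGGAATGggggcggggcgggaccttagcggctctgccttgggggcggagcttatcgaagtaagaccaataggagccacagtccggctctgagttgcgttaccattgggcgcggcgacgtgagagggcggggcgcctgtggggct
Zyx, chr6:42349578-42349827, plus strand: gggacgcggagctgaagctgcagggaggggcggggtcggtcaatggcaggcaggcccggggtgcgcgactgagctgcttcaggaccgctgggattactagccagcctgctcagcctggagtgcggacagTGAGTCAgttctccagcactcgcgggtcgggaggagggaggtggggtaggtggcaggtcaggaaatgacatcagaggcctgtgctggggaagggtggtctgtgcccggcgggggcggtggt
Itgb1, chr8:128685404-128685653, plus strand: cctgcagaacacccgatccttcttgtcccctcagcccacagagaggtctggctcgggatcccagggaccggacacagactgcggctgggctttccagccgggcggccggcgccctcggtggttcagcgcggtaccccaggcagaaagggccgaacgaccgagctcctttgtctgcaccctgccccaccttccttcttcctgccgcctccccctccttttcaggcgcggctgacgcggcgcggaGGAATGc
Vcl has a CArG box from -227 to -218 and a TEAD match from -143 to -138, counted back from the base before the start. Zyx has an AP-1 match on the minus strand from -121 to -115, and Itgb1 a TEAD match from -7 to -2. Among all 32851 promoters, 1.47% held a CArG box, 12.6% a TEAD match and 4.46% an AP-1 match in the same window, beside 2, 2 and 1 of the 29 member promoters. The capitalised matches do not overlap each other, and the second CArG box was that of Fermt2. An ETS match (CCGGAAG) was in 3 of 29 member promoters and 6.91% of all, and a TATA box (TATAAA) in 2 of 29 and 12.4% of all. GC boxes (GGGCGG) were in 58.6% of member promoters and 32.7% of all promoters, beside a median GC content of 65.2% in member promoters and 52.4% in all. These are descriptions of letters, and binding was not measured.

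Cytoplasmic adhesion genes outside the 32 were called in both directions. Of 70 further names, 58 were tested, with 14 higher and 2 lower and a median log2 difference of 0.18. The called share of 27.6% stands beside 13.1% of all tested genes, 7.65% as higher and 5.45% as lower. These names were chosen with earlier results of these data known, so their share is not read as support. Ajuba, a LIM protein gene related to Zyx, was at 19.2, 17.7, 22.6 and 21.8 RPKM in T120D lines 3, 6, 15 and 18, against 8.38 RPKM in wt (limma log2 difference 1.18, adjusted p = 0.00221). Actn1, which encodes an actin crosslinker that binds vinculin, was at 62.9 ± 1.96 RPKM (SD, n = 4) in T120D lines and 34.1 RPKM in wt. Tes, the gene of a LIM protein that binds zyxin, had a log2 difference of 0.92 (limma adjusted p = 0.00441).

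The 2 lower genes were Enah and Shc1. Enah, encoding the actin regulator Mena, which zyxin recruits, was at 6.01, 5.93, 6.14 and 5.88 RPKM in T120D lines 3, 6, 15 and 18, against 15.2 RPKM in wt (limma log2 difference -1.22, adjusted p = 0.00171). Its T120D values were nearly equal and far below wt. Shc1, an adaptor gene of growth factor and integrin signalling, was at 21.1 ± 0.590 RPKM (SD, n = 4) in T120D lines and 30.2 RPKM in wt (limma log2 difference -0.49, adjusted p = 0.0282). This call ended without line 3, 15 or 18 (0.0588, 0.0587 and 0.0509) and without a trend (0.0800).

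Of 14 membrane partners of integrins, 1 was called higher, 2 lower and 11 not. Their called share of 21.4% stands beside 13.1% of all tested genes. The partners were chosen with earlier results of these data known, so this share is not read as support. Plaur, the urokinase receptor gene, was at 39.7, 28.3, 31.5 and 29.9 RPKM in T120D lines 3, 6, 15 and 18, against 6.83 RPKM in wt (limma log2 difference 2.08, adjusted p = 0.000230). Cd82, a tetraspanin gene, was at 0.722, 1.04, 1.37 and 0.231 RPKM in T120D lines 3, 6, 15 and 18, against 4.93 RPKM in wt (log2 difference -1.73, limma adjusted p = 0.0165; 0.0834 without the filter and 0.0648 with a pseudocount of 0.1). It passed the filter on low values only through wt, so its call is not read as support. Cd47, encoding a partner of beta integrins, was at 5.71 ± 1.63 RPKM in T120D lines and 13.0 RPKM in wt (log2 difference -1.10, limma adjusted p = 0.0405; 0.165 without the filter, 0.0507 with a pseudocount of 0.1, 0.0652 without line 15 and 0.0811 without a trend).

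Genes of integrin ligands were called in both directions: 6 of 24 tested were higher and 10 lower, with a median log2 difference of -0.10. The called share of 66.7% stands beside 13.1% of all tested genes, 7.65% as higher and 5.45% as lower. This list was chosen with earlier results of these data known, so its share is not read as support. Fn1, encoding fibronectin, the ligand of the Itga5 product, was at 137, 148, 154 and 120 RPKM in T120D lines 3, 6, 15 and 18, against 376 RPKM in wt (limma log2 difference -1.43, adjusted p = 0.000300). Col3a1, a fibrillar collagen gene, had a log2 difference of -1.52 (limma adjusted p = 0.000786). Among other matrix ligands, Spp1 was lower, with a log2 difference of -2.99 (limma adjusted p = 0.000131). Tgfbi was at 0.464 ± 0.194 RPKM in T120D lines and 3.15 RPKM in wt; it passed the filter on low values only through wt, so its call as lower (one of the 10) is not read as support, and it ended with a pseudocount of 0.1 (limma adjusted p = 0.0579). Tnc, Thbs1, Cyr61 and Ctgf, whose products bind several integrins, were higher by 2.43, 3.18, 2.38 and 3.64 on the log2 scale.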

How the data were processed

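The authors deposited 1 table of RPKM values per line; build mm9 and Partek are named, per the submitters' processing notes. Libraries were made with a stranded mRNA kit, per the labels' protocols. Aligner, annotation and strand setting: not given in the sources used here. Overlapping genes may share reads. Values were analysed as log2(RPKM + 1); this scale understates changes of low genes. Genes averaging 1 RPKM or more were tested with limma 3.58.1 in R 4.3.3 (empirical Bayes with a trend, two-sided, Benjamini-Hochberg over 10052 genes). The residual spread (3 degrees of freedom) is that of the T120D lines, and the lone wt line was given the same spread. Depth was estimated from steps of low values in genes with 1 annotated GRCm38 transcript; 48.1% to 53.1% of such values came out whole to within 0.05 reads, against 10% by chance, too few to support a count model over all genes. Reads of the low receptors rest on a common step in each gene's own values. On simulated data for this comparison (9884 genes), 89.3% of genes changed by a log2 difference of 1 and all those changed by 2 were called. The simulation gave genes of like level 1 spread, wt included, so the real shares may be lower. Differences of tested members were at most 0.79, so these shares do not apply to members left uncalled. Named genes were all 32 members and, per further list, up to 4 called genes in each direction by size. A result the rule names is not reported here. The members and lists were chosen with earlier results of these data known. Alternatives were a pseudocount of 0.1, no filter, a minimum mean of 5 RPKM, median scaling, quantile normalization, limma without a trend and leaving out each T120D line.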

Additional observations from a re-analysis of the deposited data

Results flagged for a closer look

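Among the 30 members whose values differed between the T120D lines, 3 had 1 line far from the other 3, as a gap that took up most of the group's range; chance flags about 1 in 20 groups. Itga5 was at 19.8 RPKM in T120D line 18, against 24.1 to 24.4 RPKM in the other T120D lines. Itga3 was at 2.20 RPKM in T120D line 3, against 1.94 to 1.98 RPKM in the others. Itga11 was at 0.0761 RPKM, a single estimated read, in T120D line 15 and at 0 in the others.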

How the results depend on the processing

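No paired analysis was possible because the wt line shares no replicate number with the T120D lines. With no filter on low values, 434 genes were called higher instead of 769, 2 receptors (Itgav and Itgb1) were higher and 1 (Itga11) lower, and 3 cytoplasmic members (Bcar1, Src and Tns3) were higher instead of 5. When limma was run without a trend, the calls were 455 higher and 361 lower (548 with it), and 2 cytoplasmic members (Src and Zyx) were higher. The receptor median of 0.02 was 0.08 with a pseudocount of 0.1 and with quantile normalization, and 0.38 over the receptors averaging 5 RPKM or more, where fewer genes enter. Leaving out each T120D line in turn gave 559 to 799 genes higher and 400 to 596 lower, 1 receptor and 4 to 5 cytoplasmic members higher and 0 members lower, a receptor median of 0.00 to 0.06 and a cytoplasmic median of 0.36 to 0.47. Added after the data were seen, the ratio of the alpha sums was 1.14 to 1.17 and that of the beta sums 1.38 to 1.41 without 1 T120D line. The sign of uncalled genes near 0 turned for Itga5 without line 18 (-0.06 to 0.04 over the lines left out) and for Pxn without line 3 (-0.05 to 0.02) and with median scaling (0.01). The cause was not tested. Receptors under 1 RPKM rest on few reads, and no spread between wt lines was measured.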
